A study of Homo sapiens with 30 samples.

Results

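Notch receptors, ligands and target genes were followed across RWPE1 prostate epithelial cells that carried the transcription factor ERG, a myristoylated AKT (mAKT), both or neither. The 8 genes are the receptors NOTCH1, NOTCH2 and NOTCH3, the ligands JAG1, JAG2 and DLL1, and the targets HES1 and HEY1. The rule lists them by name and uses no measured value, but the members were chosen with earlier results of these data known. Each of the 8 matched 1 of the 26255 genes in the RNA-seq table. RWPE1 is an immortalised line of normal human prostate epithelium. All 4 RNA-seq lines were transduced with retroviruses, selected with puromycin and hygromycin, and grown in keratinocyte serum-free medium with EGF and bovine pituitary extract. RWPE1-Vector carried the empty pQCXIH and pBabe-puro, RWPE1-ERG carried pQCXIH-ERG (isoform 1) and empty pBabe-Puro, RWPE1-mAKT carried empty pQCXIH and pBabe-Puro-Myr-AKT, and RWPE1-ERG/mAKT carried pQCXIH-ERG with pBabe-Puro-Myr-AKT. In these lines ERG and mAKT are expressed from the retroviral constructs, not from an endogenous locus. Each line was sequenced as 3 libraries, and the deposited table holds 1 FPKM value (fragments per kilobase of transcript, scaled to the mapped fragments) per line, pooled over its libraries. The table's columns of the authors' own tests between lines were set aside, so each expression value is given as the authors' pooled value, with no error, test or depth of its own.

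Peak lists add where ERG, the kinase ERK2, open chromatin (ATAC-seq) and the repressive mark H3K27me3 were called near these genes, with 1 library per line and no replicate. ERG ChIP came from RWPE1-ERG/mAKT and from VCaP, a prostate cancer line given the vehicle DMSO. ERK2 ChIP came from RWPE1-Vector and RWPE1-ERG, ATAC-seq from 3 lines (RWPE1-ERG/mAKT, RWPE1-ERG, RWPE1-mAKT), and H3K27me3 ChIP from RWPE1-Vector, from RWPE1-ERG and from the line RWPE1-ERG S96E. For the ERK2 and H3K27me3 ChIP the labels name only the pQCXIH construct, empty, with ERG, or with the S96E form of ERG. The list attached to the VCaP input carries a header that names another ChIP, and the list attached to the ERG ChIP of LY294002-treated VCaP cells carries peak names of RWPE1 ATAC-seq, so neither was used. The ATAC-seq of RWPE1-Vector was not analysed here. The ChIP libraries whose headers give a depth held 8393459 to 26454542 reads, and the ATAC-seq library of RWPE1-mAKT held 35688481.

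Notch signalling passes between touching cells. A ligand of the Jagged or Delta type on one cell binds a receptor on its neighbour, ADAM proteases and γ-secretase then cut the receptor, and its freed intracellular part joins the DNA-binding protein RBPJ in the nucleus to switch on genes of the HES and HEY families, which encode repressors. In stratified and glandular epithelia, the prostate included, Notch is known for its part in the balance between basal and luminal cells.

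The labels were checked first. ERG stood at 0.264 FPKM in RWPE1-Vector and 0.435 in RWPE1-mAKT, and at 358 in RWPE1-ERG and 328 in RWPE1-ERG/mAKT, so the lines labelled with ERG are the ones with its RNA. All 7 prostate epithelial markers stood at 21.3 FPKM or more in every line, while none of 5 endothelial markers reached 1 FPKM. Of 6 stromal markers, DCN, LUM, COL3A1 and PDGFRB were at or near 0. The other 2 were low but present, COL1A1 at 1.78 to 2.18 FPKM and ACTA2 at 0.883 to 1.42 FPKM over the lines. The summed level over each list was 5634 to 7988 FPKM for the epithelial, 2.69 to 3.61 for the stromal and 0.0416 to 0.326 for the endothelial markers. The basal and luminal markers were not level across the lines. KRT5, a basal keratin, stood at 3126 FPKM in RWPE1-Vector, 1170 in RWPE1-ERG, 3642 in RWPE1-mAKT and 3519 in RWPE1-ERG/mAKT, and the luminal keratin KRT8 stood at 622, 1769, 671 and 921. These are bulk samples, in which fewer cells of a type and less RNA per cell cannot be told apart.

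Of the 8 genes, NOTCH3 differed most between the lines. It stood at 2.98 FPKM in RWPE1-Vector, 1.44 in RWPE1-ERG, 7.37 in RWPE1-mAKT and 12.4 in RWPE1-ERG/mAKT, so that the highest line was 8.16-fold above the lowest on the scale of FPKM + 0.1. The log2 ratio for ERG was −1.0 in cells without mAKT and 0.75 in cells with it, opposite in sign. The ligand DLL1 was higher in both lines with ERG than in the lines without it, at 2.04 and 1.58 against 0.743 and 0.588 FPKM. NOTCH1 and HES1 had their highest level in RWPE1-ERG/mAKT, while NOTCH2, JAG1 and JAG2 differed by at most 1.39-fold across the 4 lines.

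**Figure D1:**
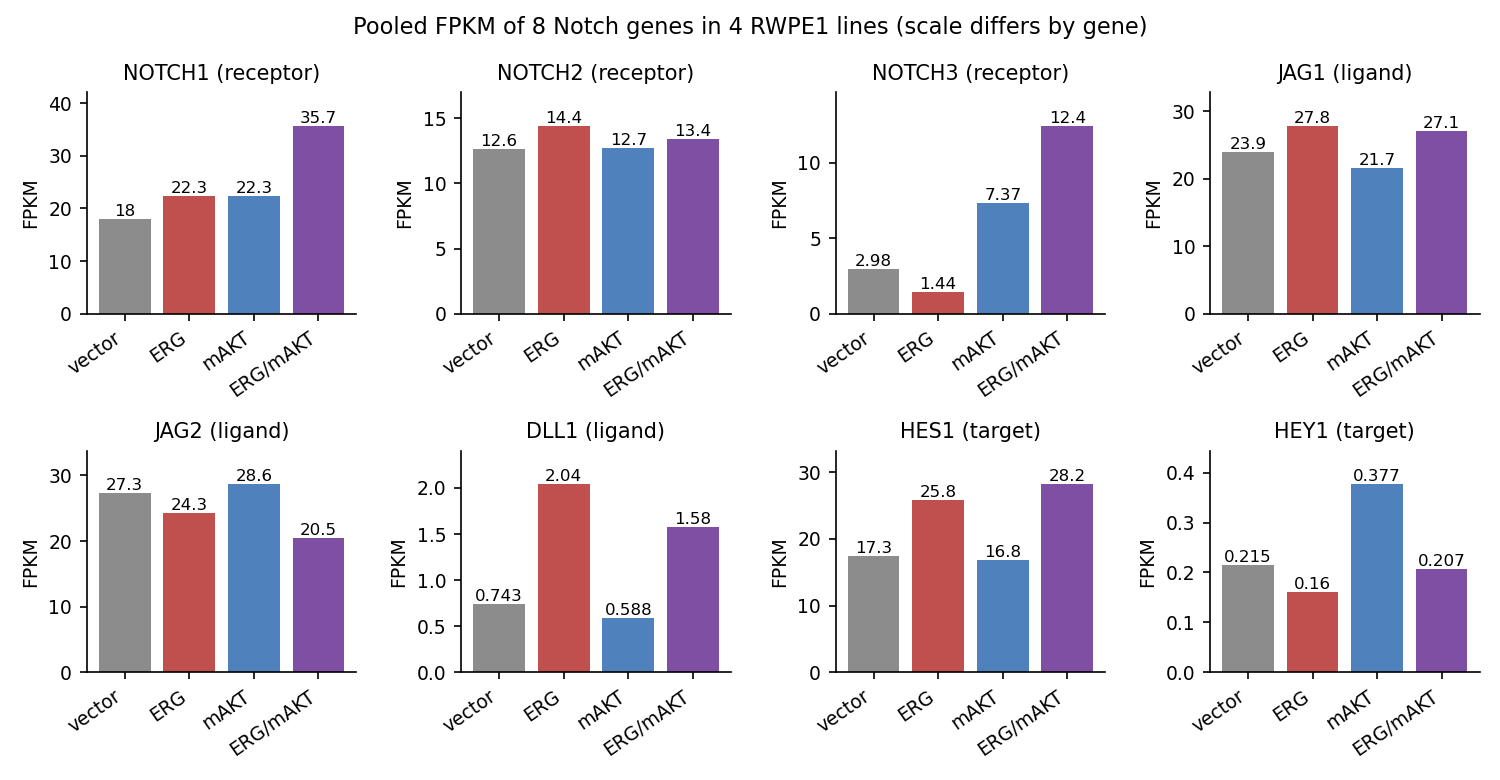
Bars give the pooled FPKM of each of the 8 Notch genes in the 4 RWPE1 lines, from 0, with a scale of its own for each gene and no error bars because the table holds 1 value per line. NOTCH3 ranges from 1.44 to 12.4 FPKM, DLL1 is highest in the lines with ERG, and HEY1 stays below 0.4 FPKM.

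Folds were read on log2(FPKM + 0.1), and a gene was counted as past 2-fold where 2 lines differed by at least 1 on that scale. The counts cover the 12664 genes with at least 1 FPKM in any line, which include every member except HEY1. With mAKT alone against vector, 1 of 7 members was past 2-fold, against 2.87% of all genes tested. With ERG alone, 2 of 7 were past it, 1 higher and 1 lower, against 6.83% of genes in either direction, 4.95% higher and 1.88% lower. In RWPE1-ERG/mAKT, 1 of 7 was past 2-fold over RWPE1-ERG (6.64% of genes), 1 over RWPE1-mAKT (4.35%) and 1 over RWPE1-Vector (5.82%). These comparisons share lines and are not independent of each other. With so few members, 1 gene sets each of these shares, and no count is read as a property of the whole group. For RWPE1-ERG/mAKT, the median log2 ratio of the 7 members was 0.68 over RWPE1-mAKT and 0.70 over RWPE1-Vector. The medians of all genes tested were −0.08 and −0.06. Over RWPE1-ERG the median of the members was −0.04, beside −0.05 for all genes. With mAKT alone it was 0.01, beside 0.02 for all genes, and with ERG alone 0.22, beside −0.01.

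**Figure D2:**
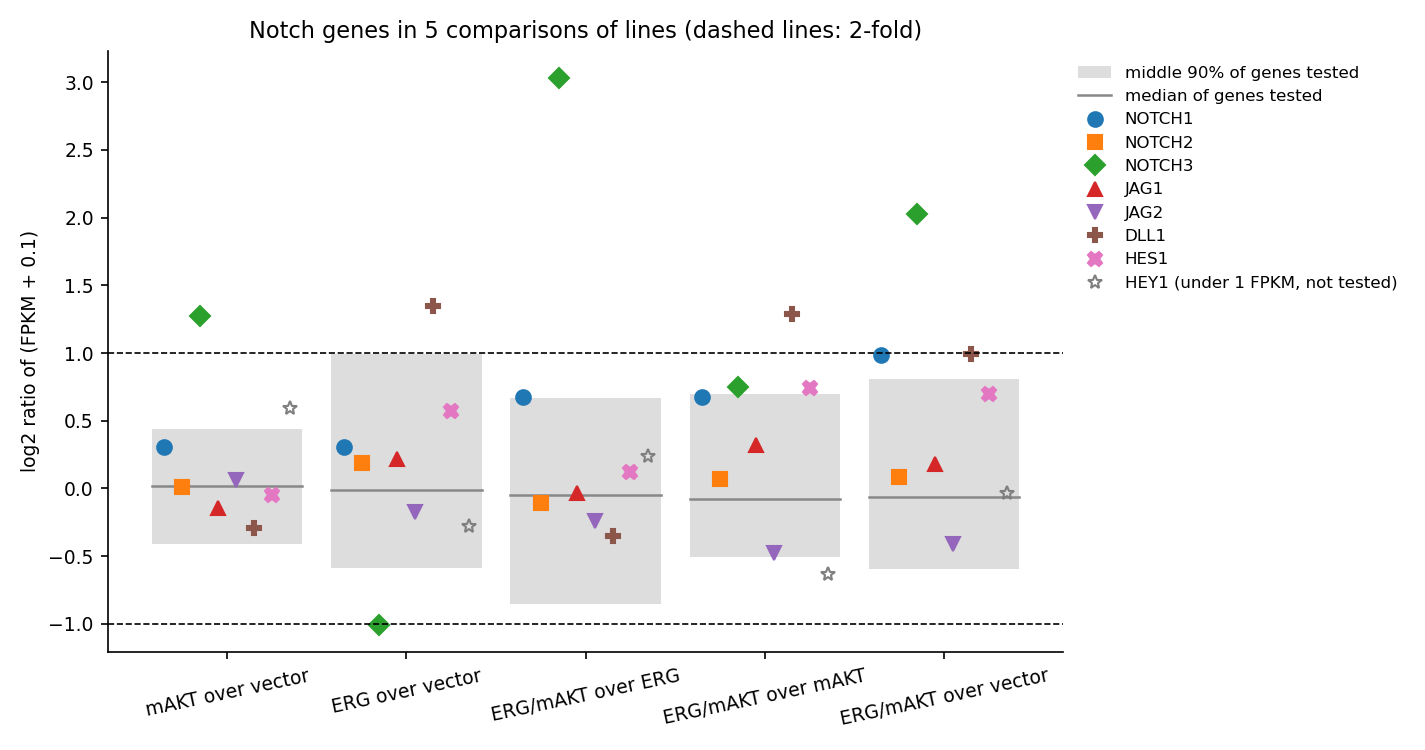
Symbols give the log2 ratio of (FPKM + 0.1) of each Notch gene in 5 comparisons of lines; grey boxes span the middle 90% of the 12664 genes tested, grey lines are their medians and dashed lines mark 2-fold. NOTCH3 lies at 3.03 in RWPE1-ERG/mAKT over RWPE1-ERG and at −1.0 in RWPE1-ERG over RWPE1-Vector, and DLL1 lies above the 2-fold line in the comparisons of ERG with a control of the same AKT state.

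The 3 receptors differed in pattern. NOTCH1, the most abundant of the 3 receptors, stood at 18.0 FPKM in RWPE1-Vector, 22.3 in RWPE1-ERG, 22.3 in RWPE1-mAKT and 35.7 in RWPE1-ERG/mAKT. The lines with ERG alone or mAKT alone were level, with log2 ratios of 0.31 over vector for each. The line with both stood above every other, with log2 ratios of 0.68 over RWPE1-ERG and 0.68 over RWPE1-mAKT. Over RWPE1-Vector its log2 ratio was 0.99, just short of 2-fold and above that of 96% of genes tested. NOTCH2 hardly differed, at 12.6, 14.4, 12.7 and 13.4 FPKM in the same order of lines. Its log2 ratios ran from −0.10 to 0.19, and its level is uncertain because it shares near-identical sequence with the NOTCH2NL copies, which stood at 5.56, 8.09, 5.45 and 5.11 FPKM.

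NOTCH3, a receptor best known from vascular smooth muscle but also expressed in epithelia, had a log2 ratio of 1.28 for mAKT over vector, above that of 98.7% of genes tested. For ERG over vector its ratio was −1.0, with 1.86% of genes lower, and just past the 2-fold line. It was under 2-fold at −0.99 with ratios centred on the median of all genes and at −0.71 with a pseudocount of 1. In RWPE1-ERG/mAKT the ratio was 3.03 over RWPE1-ERG, 0.75 over RWPE1-mAKT and 2.03 over RWPE1-Vector. The log2 ratio for ERG was thus 1.75 higher with mAKT than without it. This difference rests on 4 separate lines, and 2.79% of all genes tested had one of at least 1 in that direction. NOTCH3 was the 1 member of 7 with a difference of at least 1 in either direction (6.61% of genes tested), while those of the other 6 lay between −0.31 and 0.37. Its level was above that of 21.1% of genes tested in RWPE1-Vector, 9.49% in RWPE1-ERG, 40.5% in RWPE1-mAKT and 55.5% in RWPE1-ERG/mAKT, and whether the libraries of a line differed by as much is not known from a pooled value. The low value of NOTCH3 in RWPE1-ERG went with a low value of the basal marker KRT14, which stood at 2936, 700, 2527 and 1185 FPKM, and of TP63, at 36.3, 21.3, 39.2 and 38.0 FPKM. In the lines with mAKT, NOTCH3 was above its level in RWPE1-Vector, while KRT14 was below its own and TP63 was near its own. The part of basal and luminal identity in the NOTCH3 values was not tested.

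Of 9307 other genes with at least 5 FPKM in any line, the 3 whose pattern over the 4 lines was nearest to that of NOTCH3 were SERPINB13, KLK8 and AQP3. The likeness is the root mean square difference of log2(FPKM + 0.1) after centring each gene on its mean over the 4 lines, and it was 0.20, 0.21 and 0.21. AQP3, a channel for water and glycerol, stood at 11.8 FPKM in RWPE1-Vector, 4.97 in RWPE1-ERG, 28.5 in RWPE1-mAKT and 62.3 in RWPE1-ERG/mAKT. SERPINB13, a protease inhibitor of squamous epithelium, stood at 2.00, 0.741, 5.21 and 9.87 FPKM. KLK8, a secreted serine protease of the kallikrein family, stood at 1.77, 1.21, 5.01 and 7.38 FPKM. With 4 points a gene, such a nearness is a description only.

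Among the ligands, DLL1 was the one past 2-fold for ERG. Its levels were 0.743 FPKM in RWPE1-Vector, 2.04 in RWPE1-ERG, 0.588 in RWPE1-mAKT and 1.58 in RWPE1-ERG/mAKT. The log2 ratio for ERG was 1.34 without mAKT and 1.29 with it, above those of 96.8% and 98.0% of genes tested, and the difference between them was −0.06. All of these levels are low. Even in RWPE1-ERG no more than 14.6% of genes tested stood below DLL1. With a pseudocount of 1 in place of 0.1 its log2 ratio for ERG was 0.80 without mAKT and 0.70 with it, both under 2-fold.

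JAG1 and JAG2, the Jagged ligands, were far more abundant. JAG1 stood at 23.9 FPKM in RWPE1-Vector, 27.8 in RWPE1-ERG, 21.7 in RWPE1-mAKT and 27.1 in RWPE1-ERG/mAKT, with the lines with ERG above those without it by log2 ratios of 0.22 and 0.32. JAG2 went the other way, at 27.3, 24.3, 28.6 and 20.5 FPKM, with log2 ratios for ERG of −0.17 without mAKT and −0.48 with it. Only 5.77% of genes tested had a ratio below the latter. A lncRNA on the same strand overlaps JAG2, and reads that fall on both cannot be told apart. NOTCH1, NOTCH3 and JAG1, like JAG2, were each listed with the same locus as 1 other gene. How far reads are shared there was not tested.

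The targets differed in level. HES1, a transcriptional repressor that is a direct Notch target in many tissues, stood at 17.3 FPKM in RWPE1-Vector, 25.8 in RWPE1-ERG, 16.8 in RWPE1-mAKT and 28.2 in RWPE1-ERG/mAKT. Both lines with ERG were above both lines without it, with log2 ratios for ERG of 0.57 without mAKT and 0.74 with it, while mAKT over vector gave −0.05. Neither passed 2-fold. HEY1, a related repressor, was at the floor of detection, at 0.215, 0.160, 0.377 and 0.207 FPKM, so it was left out of the counts, and its ratios are not described further.

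**Figure D3:**
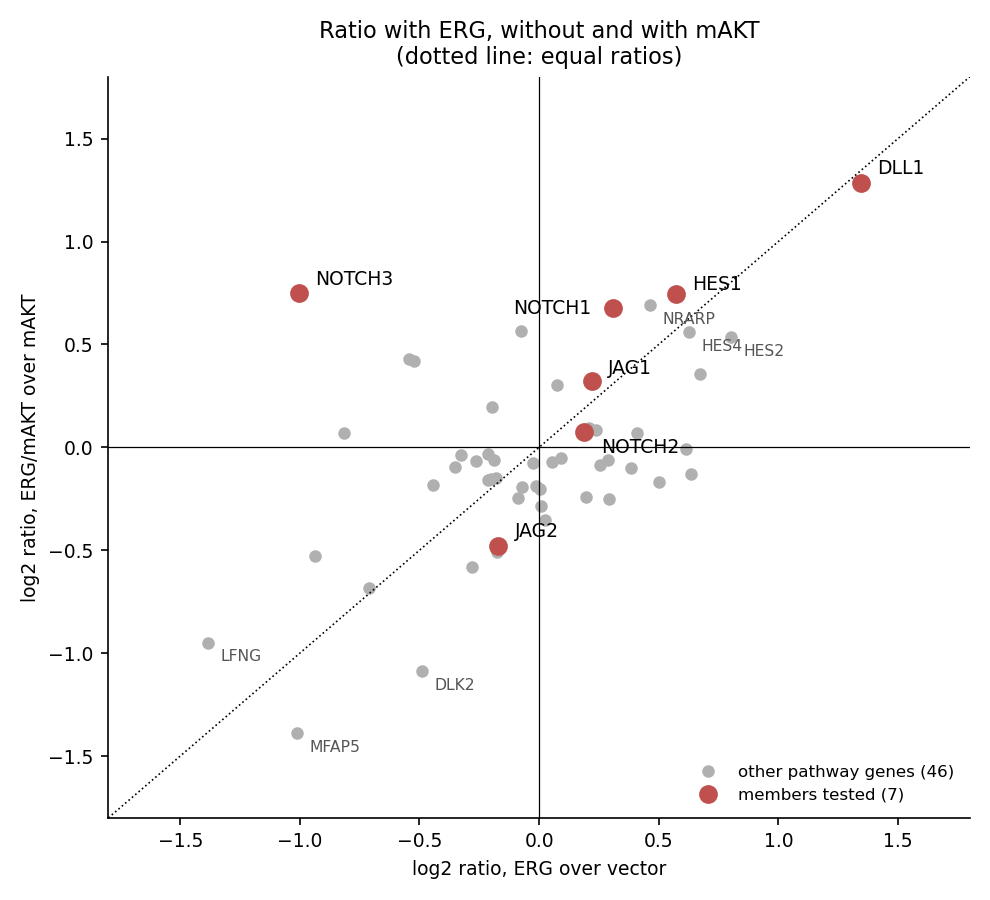
Each point is a gene, with its log2 ratio for ERG over vector on the x axis and for ERG/mAKT over mAKT on the y axis; red points are the 7 Notch members tested and grey points 46 other pathway genes. DLL1, at 1.34 and 1.29, lies near the line of equal ratios, and NOTCH3, at −1.0 and 0.75, lies far from it.

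A wider list of 56 other genes of the pathway gave 46 with at least 1 FPKM in any line. Past 2-fold were 1 of 46 for mAKT over vector, 2 for ERG over vector, and, for RWPE1-ERG/mAKT, 2 over RWPE1-ERG, 2 over RWPE1-mAKT and 1 over RWPE1-Vector. These shares are near or below those of all genes tested. Their median log2 ratios lay between −0.11 and −0.02 in the 5 comparisons. None had a difference of at least 1 between the ERG ratios without and with mAKT.

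Past 2-fold in any comparison were LFNG, MFAP5, CNTN1 and DLK2. LFNG, the Fringe enzyme that adds sugars to Notch receptors and so biases them between ligand types, stood at 2.38 FPKM in RWPE1-Vector and 0.852 in RWPE1-ERG, a log2 ratio of −1.38. MFAP5, a microfibril protein reported to bind Jagged1 and Notch1, stood at 2.78 FPKM in RWPE1-Vector, 1.33 in RWPE1-ERG and 0.530 in RWPE1-ERG/mAKT, with log2 ratios over vector of −1.01 and −2.19. CNTN1, a cell adhesion molecule described as a Notch ligand, had a log2 ratio of 1.17 for mAKT over vector (4.16 against 1.8 FPKM) and of 1.58 for RWPE1-ERG/mAKT over RWPE1-ERG (2.86 against 0.894 FPKM). These 3 genes are low, and they drop out where 5 FPKM in any line is required. DLK2, a Delta-like protein without the domain by which canonical ligands bind, was the abundant one, at 44 FPKM in RWPE1-mAKT and 20.7 in RWPE1-ERG/mAKT, a log2 ratio of −1.09.

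The machinery that cuts and reads the receptor showed no such difference. Of the genes with at least 1 FPKM, none of the 8 processing enzymes (ADAM10, ADAM17 and γ-secretase subunits among them), the 12 ubiquitination genes or the 11 genes of the nuclear complex passed 2-fold in any of the 5 comparisons. RBPJ, through which every Notch receptor acts on DNA, stood at 18.6 FPKM in RWPE1-Vector, 16.4 in RWPE1-ERG, 17.5 in RWPE1-mAKT and 12.3 in RWPE1-ERG/mAKT. Its log2 ratio of RWPE1-ERG/mAKT over RWPE1-Vector was −0.59, the opposite sign to that of NOTCH1 and NOTCH3.

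Among the other genes listed as targets, HES2, HES4 and NRARP had ratios for ERG of the same sign as HES1, both without and with mAKT. HES6 and HES7 changed sign between these settings. None of these genes passed 2-fold, and whether Notch controls them in these cells was not tested. Of the 8 listed, HES5, HEY2 and HEYL stayed under 1 FPKM in every line. Of the 5 with at least 1 FPKM, 4 had a log2 ratio above 0 for ERG without mAKT and 4 with it, with medians of 0.47 and 0.54 beside −0.01 and −0.08 for all genes tested. Each count of 4 includes a ratio near 0, that of HES7 at 0.09 without mAKT and that of HES6 at 0.07 with it. HES4, HES2, NRARP and HES6 were picked after their values were seen, and HES7 completes the 5. HES4, a repressor of the HES family, stood at 23.1 FPKM in RWPE1-Vector, 35.8 in RWPE1-ERG, 19.2 in RWPE1-mAKT and 28.3 in RWPE1-ERG/mAKT. HES2 stood at 5.50, 9.68, 6.35 and 9.25 FPKM, again with both lines with ERG above both lines without it. NRARP, a feedback inhibitor that Notch induces, stood at 11.5, 15.9, 13.2 and 21.5 FPKM and shared with NOTCH1 its highest level in RWPE1-ERG/mAKT. HES6, another gene of the HES family, was lower with ERG alone, at 1.86, 1.01, 1.52 and 1.61 FPKM, with a log2 ratio for ERG of −0.82 without mAKT and 0.07 with it. HES7 hardly differed with ERG, at 16.3, 17.3, 19.5 and 18.8 FPKM, with log2 ratios of 0.09 and −0.05.

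Where ERG was bound was asked next. Within 20 kb of its locus, an ERG peak of RWPE1-ERG/mAKT lay near 3 of the 8 genes, NOTCH1, NOTCH2 and HEY1, and 32.5% of all genes tested had such a peak. NOTCH1 had 3 peaks, as many as or more than which were found at 2.87% of genes tested, NOTCH2 had 1 and HEY1 had 1. A longer locus can collect more peaks, and the stretch searched was 91.3 kb at NOTCH1, 198 kb at NOTCH2 and 43.9 kb at HEY1. NOTCH3, JAG1, JAG2, DLL1 and HES1 had none within 20 kb in this list. These include DLL1 and NOTCH3, the members whose RNA differed most with ERG. No ERG list of RWPE1-ERG was used, and whether ERG acts on either gene was not tested. All 5 peaks were weak. Their fold enrichment over input was 3.53 or 4.24, the median of the list was 3.53, their q-values lay between 0.206 and 0.701, and with a q-value of at most 0.01 no member kept a peak (2.44% of genes tested did). No ERG peak lay within 1 kb of a member's start, and none overlapped an ATAC peak of any line. In VCaP, 1 of the 8 genes, NOTCH2, had an ERG peak (24.7% of genes tested), with a fold enrichment of 3.62 and a q-value of 0.034. It lay 17493 bp inside the gene from its start, and the NOTCH2 peak of RWPE1-ERG/mAKT 151561 bp.

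The sequences under these peaks are shown because ERG, an ETS factor, binds DNA around a GGAA core. Each line gives the 151 bases centred on the summit, on the plus strand of GRCh37 (hg19), with GGAA or its complement TTCC in capitals.
NOTCH1, downstream of the gene, chr9:139381185-139381335: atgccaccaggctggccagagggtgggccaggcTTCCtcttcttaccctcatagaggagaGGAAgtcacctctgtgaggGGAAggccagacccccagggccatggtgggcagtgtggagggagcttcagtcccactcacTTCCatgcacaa
NOTCH1, intron, chr9:139431255-139431405: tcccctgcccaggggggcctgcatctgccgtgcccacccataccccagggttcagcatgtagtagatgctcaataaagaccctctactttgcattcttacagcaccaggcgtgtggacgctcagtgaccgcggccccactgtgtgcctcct
NOTCH1, upstream of the gene start, chr9:139442164-139442314: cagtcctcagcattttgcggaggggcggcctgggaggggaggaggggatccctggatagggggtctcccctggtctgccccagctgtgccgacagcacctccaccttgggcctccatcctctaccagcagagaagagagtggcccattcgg
NOTCH2, intron, chr1:120460640-120460790: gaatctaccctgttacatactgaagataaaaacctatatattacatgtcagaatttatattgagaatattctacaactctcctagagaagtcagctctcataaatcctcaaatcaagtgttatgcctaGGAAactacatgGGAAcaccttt
NOTCH2, intron, VCaP, chr1:120594708-120594858: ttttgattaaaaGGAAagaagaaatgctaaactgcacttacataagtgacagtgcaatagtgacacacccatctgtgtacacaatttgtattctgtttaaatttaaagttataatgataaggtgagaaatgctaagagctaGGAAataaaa
GGAA on either strand was in 80.3% of all 9113 such windows of RWPE1-ERG/mAKT and in 74.3% of equally wide windows at a distance of 1 kb, so its presence in a window says little. Of the 5 windows of RWPE1-ERG/mAKT, the one at HEY1 included, 3 held no GGAA. The window downstream of NOTCH1 held 4, of which 2 lie in AGGAAG, a longer ETS form that was in 20.7% of the ERG windows and 14.9% of the flanking ones. None of the 5 held CCGGAA (2.94% of ERG windows and 1.24% of flanking windows) or the AP-1 site TGACTCA (6.91% and 2.56%). The windows were read on both strands, and AGGAAG and CCGGAA both contain GGAA.

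The 3 ERG peaks at NOTCH1 lay at different places. The first lay outside genes, beyond the 3′ end of NOTCH1, nearest to SEC16A among protein-coding genes. It was 59240 bp from the NOTCH1 start and overlapped an ERK2 peak of RWPE1-Vector. The second lay in an intron of NOTCH1, 9170 bp from the start, and the third lay 1739 bp upstream of the start, in an exon of the lncRNA NALT1. Each of these overlapped an ERK2 peak of RWPE1-ERG. The third was 163 to 193 bp from the nearest ATAC peak in the 3 lines with ATAC-seq. The peak at HEY1 lay 2669 bp upstream of its start.

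ERK2, a kinase that phosphorylates ERG and can be found on chromatin, was called near 3 of the 8 genes in RWPE1-ERG (NOTCH1, NOTCH2 and JAG2; 33.4% of genes tested) and near 7 in RWPE1-Vector (76.6%). The list of RWPE1-Vector is the longer, with 41276 peaks against 5721, so the length of the lists and a difference between the lines cannot be told apart. NOTCH1 had 9 ERK2 peaks in RWPE1-ERG, a number that 0.782% of genes tested reached, and 10 in RWPE1-Vector, which 2.79% reached. NOTCH3 was the 1 member with none in either list.

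The strongest ERK2 peak at any member lay 890 bp upstream of the NOTCH1 start, chr9:139441254-139441548, in an intron of NALT1. In RWPE1-ERG its fold enrichment was 6.02, above or equal to that of 98.5% of the list, with a q-value of 0.000227, and it was the only member peak of either ERK2 list with a q-value of at most 0.01 (2.13% of genes tested kept such a peak in RWPE1-ERG). A peak of RWPE1-Vector overlapped it, with a fold enrichment of 4.31 and a q-value of 0.126, and so did the ATAC peaks of all 3 lines. No ERG peak did, the nearest being the weak one 1739 bp upstream of the start. Its 151 bases around the summit are shown because they hold the ETS form CCGGAA, here as its complement TTCCGG. Of the ERK2 windows in RWPE1-ERG, 3.46% held CCGGAA, as did 2.54% of the windows 1 kb away. CCGGAA was more common at gene starts, in 26.5% of the wider windows directly upstream of genes tested. Its presence this close to a gene start therefore says little. Capitals mark GGAA or TTCC.
NOTCH1, ERK2 peak, chr9:139441315-139441465: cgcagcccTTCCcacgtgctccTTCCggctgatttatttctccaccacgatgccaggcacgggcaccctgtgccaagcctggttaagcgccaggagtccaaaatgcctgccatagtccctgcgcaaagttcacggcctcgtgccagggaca
A second ERK2 peak of RWPE1-ERG lay 1317 bp upstream of the start, with a fold enrichment of 4.86 and a q-value of 0.030. The other 7 had q-values of 0.244 to 1. At the other members every ERK2 peak was weak, with fold enrichments of 2.48 to 3.31 in RWPE1-ERG and of 2.28 to 3.69 in RWPE1-Vector.

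**Figure D4:**
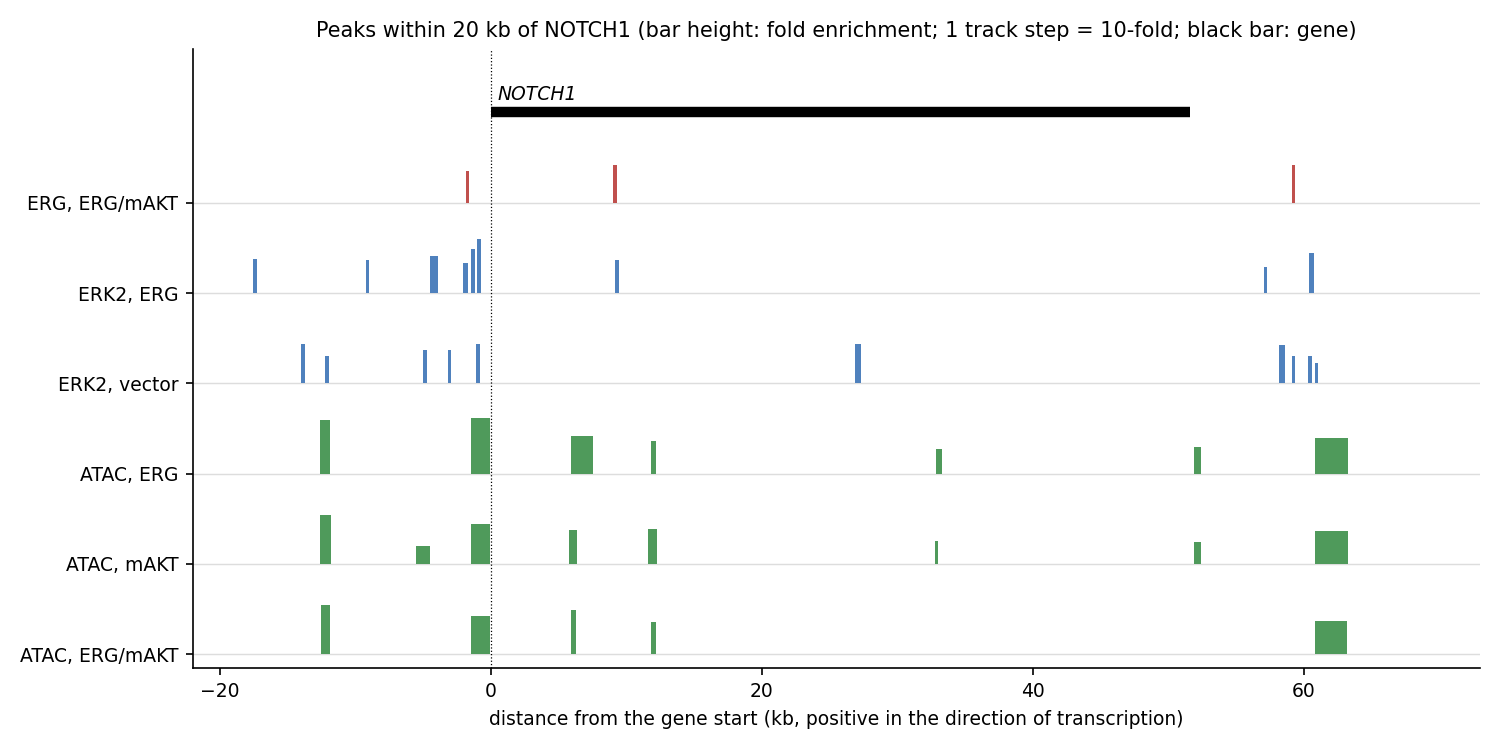
Peaks within 20 kb of NOTCH1 against the distance from the gene start in kb; bar height is fold enrichment, with 10-fold per track step, and the black bar is the gene. ERK2 peaks of RWPE1-ERG cluster just upstream of the start, where the highest has a fold enrichment of 6.02 and lies over the ATAC peaks of all 3 lines, and the 3 ERG peaks lie outside ATAC peaks.

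Open chromatin was read within 1 kb of the gene start, taken as the 5′ end of the transcript that GENCODE marks as canonical. NOTCH1, NOTCH2, JAG1, HES1 and HEY1 had an ATAC peak there in all 3 lines. NOTCH3 and JAG2 had none there in any line. At JAG2 a peak of 1529 to 1564 bp lay farther in, centred 2050 to 2079 bp inside the gene in the 3 lines. The count within 1 kb was 6 of 8 genes in RWPE1-ERG, 6 in RWPE1-mAKT and 5 in RWPE1-ERG/mAKT. Among genes tested, 92.8%, 92.3% and 89.3% had such a peak. Of genes under 1 FPKM, to which HEY1 belongs, 28.5%, 26.5% and 21.0% had one. DLL1 made the difference between the lines. Its peak spanned 2449 bp with a fold enrichment of 3.51 in RWPE1-ERG and 222 bp with one of 2.85 in RWPE1-mAKT, and no peak was called in RWPE1-ERG/mAKT, the shortest list with 42081 peaks. These are weak, with 3.93% and 2.1% of the gene starts with a peak in their lists below them.

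With the 33000 peaks of lowest p-value from each list, DLL1 had no peak at its start in any of the 3 lines, so the length of the lists and a difference between the lines cannot be told apart for these calls. A stronger peak lay 15531 to 15581 bp upstream in each line, with fold enrichments of 8.44 in RWPE1-ERG, 7.48 in RWPE1-mAKT and 8.08 in RWPE1-ERG/mAKT. It covers the first exons of both another DLL1 transcript and the neighbouring gene FAM120B, which cannot be told apart there. NOTCH3 had its nearest ATAC peak inside the gene, 4960 to 5117 bp from the start, with fold enrichments of 5.63 in RWPE1-ERG, 4.96 in RWPE1-mAKT and 4.85 in RWPE1-ERG/mAKT. It was called in all 3 lines although NOTCH3 RNA differed 8.16-fold between RWPE1-ERG and RWPE1-ERG/mAKT. RWPE1-mAKT had 8 ATAC peaks within 20 kb of NOTCH3, RWPE1-ERG 3 and RWPE1-ERG/mAKT 2. The lists differ in length, so no direction was drawn from these numbers. The ATAC peak over the HES1 start had fold enrichments of 4.56 in RWPE1-ERG, 4.26 in RWPE1-mAKT and 4.52 in RWPE1-ERG/mAKT. The median over gene starts with a peak was 7.69, 6.20 and 6.28 in the same lists. Fold enrichments of different lists may therefore not be on the same scale, and no likeness between the lines was drawn from them.

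H3K27me3, laid down by the Polycomb enzyme EZH2, is typical of silenced genes. A region of the mark lay within 1 kb of the start of 2 of the 8 genes in RWPE1-Vector (DLL1 and HEY1; 8.61% of genes tested), of 1 in RWPE1-ERG (HEY1; 3.35%) and of 4 in RWPE1-ERG S96E (DLL1, HEY1, JAG2 and NOTCH3; 7.29%). Of genes under 1 FPKM, to which HEY1 belongs, 48.4%, 36.8% and 49.4% had one. S96E replaces a serine of ERG with glutamate, which resembles a phosphorylated residue. All regions with a q-value under 0.05 were in RWPE1-ERG S96E. At HEY1 the region of 2290 bp had a fold enrichment of 5.15 and a q-value of 1.47e-06. At DLL1 the region chr6:170600499-170605500 had a fold enrichment of 4.23 and a q-value of 8.27e-05. At NOTCH3 the region chr19:15308707-15314220 covered the start, with a fold enrichment of 3.28 and a q-value of 0.011. The region at JAG2 was weaker, with a fold enrichment of 2.60 and a q-value of 0.148.

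In RWPE1-Vector and RWPE1-ERG the regions at the same places were weaker and shorter, with q-values of 0.939 to 1. At HEY1 the fold enrichment was 2.23 in RWPE1-Vector and 2.2 in RWPE1-ERG. At the DLL1 start the region counted in RWPE1-Vector spanned 202 bp with a fold enrichment of 2.15. Farther upstream of DLL1, RWPE1-Vector had a region of 2813 bp with a fold enrichment of 1.97 and RWPE1-ERG one of 1607 bp with 1.88. At NOTCH3 RWPE1-ERG had 2 regions of 468 and 463 bp on either side of the start, with fold enrichments of 2.13 and 2.18, and RWPE1-Vector had none within 5 kb. The 3 libraries were not alike. The list of RWPE1-ERG S96E holds 3413 regions with a q-value of at most 0.01, those of RWPE1-Vector and RWPE1-ERG 29 and 39, and the ChIP libraries held 26454542, 19444504 and 16513053 reads, so the quality of the ChIP and the line cannot be told apart. No RNA of RWPE1-ERG S96E was used here.

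**Figure D5:**
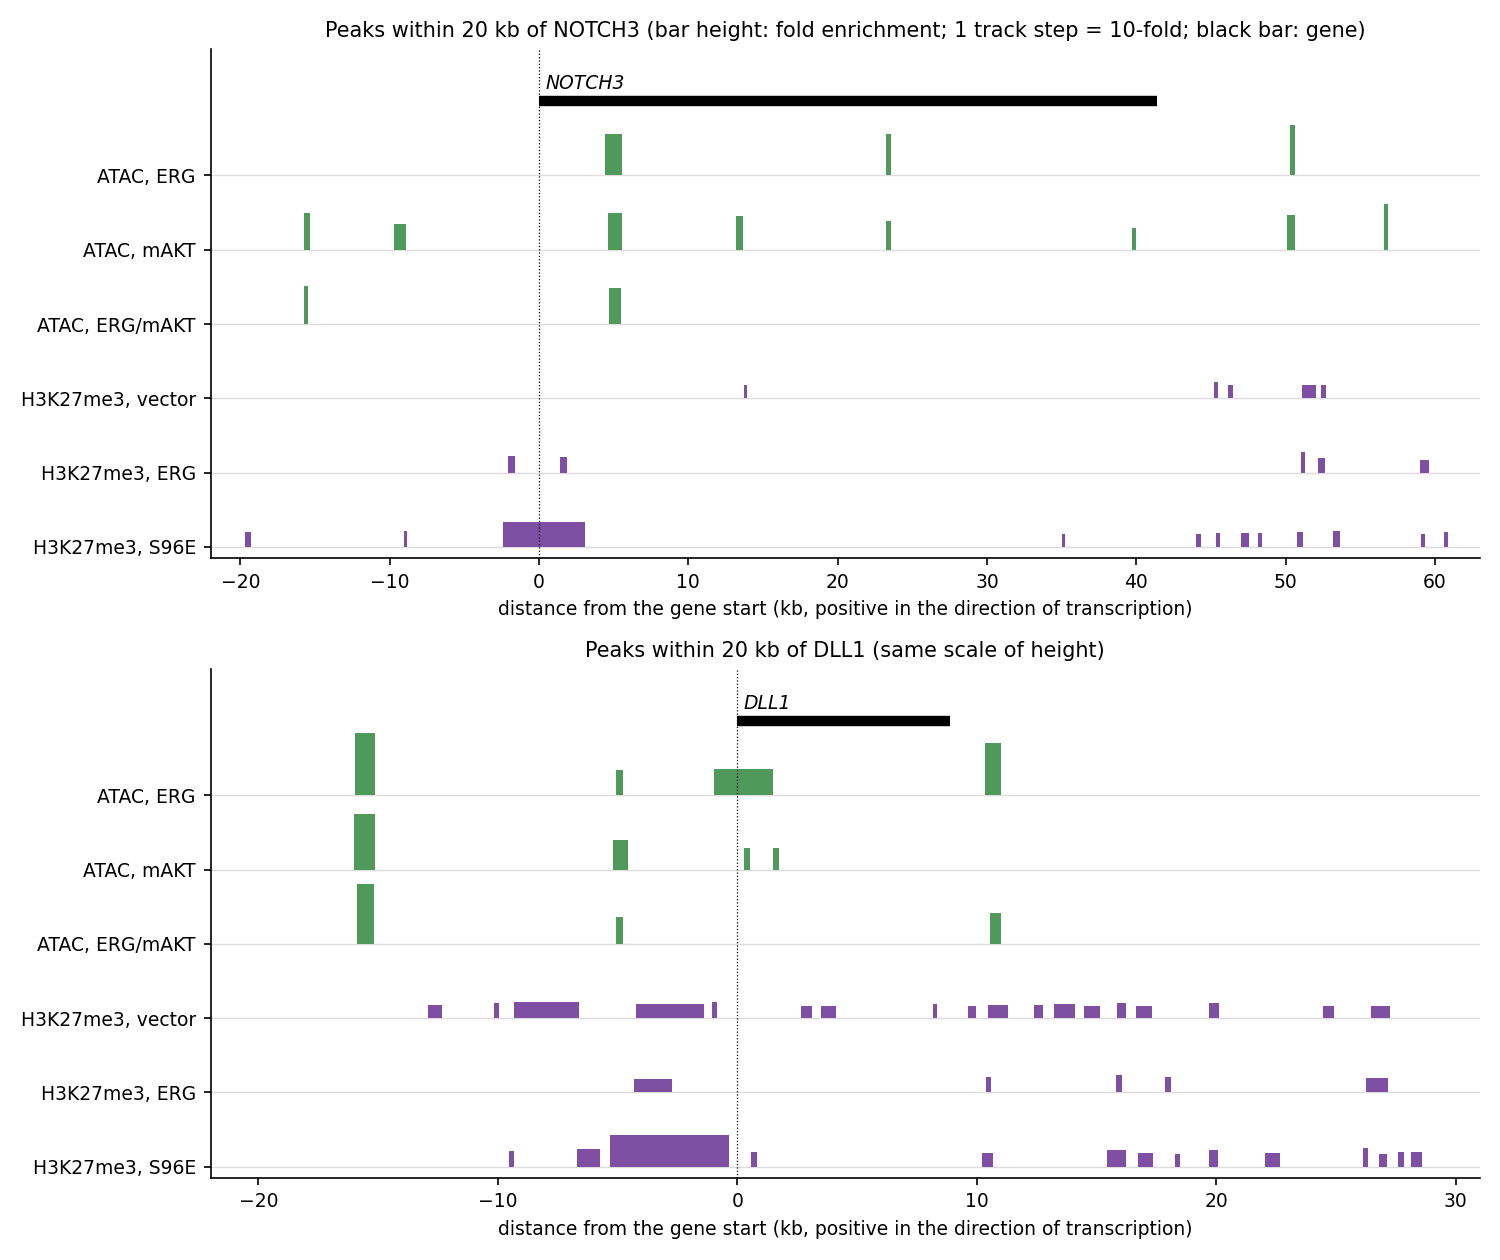
ATAC peaks and H3K27me3 regions within 20 kb of NOTCH3 (top) and DLL1 (bottom) against the distance from the gene start in kb; bar height is fold enrichment, with 10-fold per track step, and black bars are the genes. In RWPE1-ERG S96E a region of 5514 bp covers the NOTCH3 start and one of 5002 bp lies just upstream of the DLL1 start, and no ATAC peak covers the NOTCH3 start.

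The 250 bases before the start of NOTCH3, DLL1 and HES1 are shown. NOTCH3 and DLL1 had the largest RNA differences of the members and an H3K27me3 region at the start in at least 1 line. HES1 had no such region, and its window holds the RBPJ site GTGGGAA. The bases are written in the direction of transcription from GRCh37, with GGAA or TTCC and GTGGGAA in capitals.
NOTCH3, minus strand, chr19:15311807-15312056: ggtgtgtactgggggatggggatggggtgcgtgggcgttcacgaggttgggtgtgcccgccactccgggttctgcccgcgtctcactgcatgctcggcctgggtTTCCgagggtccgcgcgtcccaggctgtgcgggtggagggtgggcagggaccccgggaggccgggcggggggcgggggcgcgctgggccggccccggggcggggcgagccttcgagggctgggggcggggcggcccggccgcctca
DLL1, minus strand, chr6:170600167-170600416: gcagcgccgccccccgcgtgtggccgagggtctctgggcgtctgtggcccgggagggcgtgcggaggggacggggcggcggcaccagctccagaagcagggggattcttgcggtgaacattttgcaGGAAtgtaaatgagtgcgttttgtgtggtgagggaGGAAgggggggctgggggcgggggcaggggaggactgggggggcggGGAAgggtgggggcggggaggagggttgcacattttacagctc
HES1, plus strand, chr3:193853687-193853936: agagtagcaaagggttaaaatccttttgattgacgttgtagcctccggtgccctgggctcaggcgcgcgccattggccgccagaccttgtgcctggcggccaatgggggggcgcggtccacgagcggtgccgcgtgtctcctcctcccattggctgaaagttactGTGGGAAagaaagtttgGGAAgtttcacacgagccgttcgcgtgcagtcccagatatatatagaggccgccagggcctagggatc
GTGGGAA, which contains GGAA, was searched on both strands. It was present before the starts of HES1 and HEY1, the 2 targets, and before none of the 6 receptors and ligands, while 4.70% of 11193 upstream windows of genes tested held it. GGAA was in 92.0% of these windows, and the windows of NOTCH1 and JAG2 held none. AGGAAG was in the DLL1 and NOTCH2 windows and in 26.2% of all. These matches are letters in the reference, not measured sites. The bases before the NOTCH3 start are 78.0% G or C, those of DLL1 69.2% and those of HES1 59.2%.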

How the data were processed

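RNA-seq, ATAC-seq and ChIP-seq of retrovirally transduced RWPE1 lines and ERG ChIP-seq of VCaP were used as deposited. For RNA-seq, the authors aligned polyA libraries with TopHat2 and made FPKM values with Cuffdiff (versions not given in the sources used here), pooled over the 3 libraries of a line. The library protocol marks no strand. The table's columns of the authors' own comparisons (fold changes, p-values and q-values, from tests over the libraries) were not used. For ChIP-seq, DNA of 3 experiments was pooled into 1 library, and reads were aligned to hg19 with Bowtie2. The deposited peak lists give fold enrichment (a ratio of ChIP or ATAC signal to background) and −log10 p and q from MACS2, versions 2.1.2 and 2.2.7.1 where the headers name one. The p limit was 0.001 for ERG and 0.01 for ERK2. H3K27me3 regions were called as broad, with a p limit of 0.001 for strong stretches and 0.1 for the weaker ones joined to them, and regions of either kind were counted. The ATAC peaks were called by the authors without an input.

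Lines were grouped by their labels. Log2 ratios used FPKM + 0.1, and shares were taken over the 12664 genes with at least 1 FPKM in any line. With 1 pooled value per line and 1 library per peak list, no test was computed here, the RNA depth is unknown, and the values used do not show how far replicates differ. ERG and ERK2 peaks were counted where at least 1 bp overlapped the locus with 20 kb on either side, and ATAC and H3K27me3 peaks within 1 kb of the start of the GENCODE canonical transcript, which 11193 of the 12664 genes have. Left out were 4 duplicated gene names, 3 genes whose estimate failed, and 2 peak lists whose contents named another sample. Other pathway genes were named where past 2-fold with at least 2 FPKM in either line, up to 3 per direction and comparison. The members and lists were chosen with earlier results of these data known. Steps were tested on simulated data and run with Python 3.11.15, pandas 2.3.3, numpy 2.4.6 and pysam 0.24.0. Alternatives were another pseudocount, fold, minimum FPKM, centring, q-value limit, overlap, window and gene start.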

Additional observations from a re-analysis of the deposited data

How the results depend on the processing

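No paired analysis was possible because the RNA table holds 1 pooled value per line, and for the same reason no replicate could be left out. Of 96 counts under an alternative, 64 stayed within 1.5 times the main count and 32 moved. Of 80 log2 ratios of members, 79 stayed within 1.5-fold, none past 2-fold changed sign, and that of DLL1 for ERG with mAKT was 0.70 with a pseudocount of 1. With ratios centred on the median, 3 ratios near 0 changed sign: NOTCH2 for mAKT over vector (0.01 to −0.01), JAG1 for ERG/mAKT over ERG (−0.04 to 0.01) and HEY1 for ERG/mAKT over vector (−0.04 to 0.03). Where no construction is named, the cause was not tested.

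For members past 2-fold, ERG over vector gave 0 in place of 2 with a pseudocount of 1, 1 (DLL1) with ratios centred on the median of all genes and 1 (NOTCH3) with at least 5 FPKM. ERG/mAKT over ERG gave 2 at 1.5-fold. ERG/mAKT over mAKT gave 0 with a pseudocount of 1, 4 at 1.5-fold and 0 with at least 5 FPKM. ERG/mAKT over vector gave 4 at 1.5-fold and 3 (DLL1, NOTCH1 and NOTCH3) with centred ratios. The count for mAKT over vector was 1 under all alternatives run. For the other pathway genes, mAKT over vector gave 0, 2 and 0 with a pseudocount of 1, at 1.5-fold and with at least 5 FPKM, ERG over vector 0, 10 and 0, ERG/mAKT over ERG 1, 5 and 0, and ERG/mAKT over mAKT 1, 5 and 1. ERG/mAKT over vector gave 8 at 1.5-fold and 0 with at least 5 FPKM. A lower fold admits more genes and a higher minimum tests fewer by construction.

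With a q-value of at most 0.01, ERG peaks remained at 0 members in RWPE1-ERG/mAKT and 0 in VCaP, and ERK2 peaks at 1 in RWPE1-ERG and 0 in RWPE1-Vector. Within 20 kb of the locus, ATAC peaks of RWPE1-ERG/mAKT lay at 8 members in place of 5. H3K27me3 lay at 1 member in RWPE1-Vector with the most upstream annotated start, at 3 in RWPE1-ERG within 5 kb of the start, and at 0 in both where q was limited to 0.05. The limits on q-value for H3K27me3 and the most upstream start were chosen after seeing the data.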
